A study of Mus musculus with 6 samples.

Results

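Among CD4 T cells sorted from mouse spleens, 5671 cells held no Foxp3 message and had under 10% of their UMIs (unique molecular identifiers, each marking 1 captured RNA molecule) in ribosomal protein genes. The cells considered had 200 genes or more, no more than 12000 UMIs and no more than 5% mitochondrial UMIs, and none of them held a UMI of the macrophage genes C1qa, C1qb and C1qc or the B cell gene Cd79a. The low cells were 5671 of the 26520 cells of this gate, of 29738 cells within the depth and mitochondrial limits and of 38073 called cells in all. The other 20849 cells of the gate, at 10% or more, are called the higher cells. The low cells were chosen by their ribosomal protein share, within limits on depth, mitochondrial share, Foxp3 and the 4 macrophage and B cell genes, so any level in low against higher cells is given as a description with no test.

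The study asked how the loss of H2-O, a chaperone that acts with H2-M in choosing the peptides shown on MHC class II, changes the CD4 T cell pool. It compared 3 H2-O knockout (H2-O KO) with 3 H2-O wild type (H2-O WT) mice, all given as C57BL6/J and naive by the labels and as unimmunized by the study's text, aged 8 weeks by the labels and 10 weeks by the study's methods. The study's methods give the sequenced mice of both groups as female. Live CD3+ CD4+ B220- NK1.1- cells, by the labels, were sequenced as 1 library of 10x Genomics 5' scRNA-seq per mouse. Both groups were bred in house, littermates are not named, and no deletion limited to 1 cell type is named, so the host and its T cells differ together. Below, KO and WT stand for mice without and with H2-O, and their values are given for replicates 1 to 3 in that order. Called cells of a library held 9973193 to 40237962 UMIs, and the low cells of a library held 411978 to 3717935 UMIs.

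Ribosomal protein messages are short, very abundant and cytoplasmic, and in lymphocytes they make up a large part of the polyadenylated RNA. Long noncoding RNAs such as Malat1, Neat1 and Xist stay in the nucleus, and messages of secreted and membrane proteins are translated at the endoplasmic reticulum. A resting CD4 T cell is small, with little cytoplasm around its nucleus.

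H2-Oa (chromosome 17, 34092340 to 34095234, GRCm38), a gene for 1 of the 2 chains of H2-O, could not check the genotypes in these cells. In low cells its level was 2.43, 1.899 and 1.91 CPM (UMIs scaled to a common library total) in KO and 1.86, 2.39 and 1.88 CPM in WT, from 19 UMIs in all. In higher cells it was 4.68, 3.44 and 4.10 CPM in KO and 4.67, 4.85 and 6.79 CPM in WT. The higher cells held 470 UMIs of it, with a log2 change of -0.42 (adjusted p = 0.209). The genotypes overlapped in both classes, in higher cells by KO replicate 1 and WT replicate 1 alone, and the part of the gene that is deleted was not given in the sources used here, so that a 5' read may lie outside it.

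The libraries did not hold the low cells in equal parts. KO held 241, 281 and 940 low cells, and WT held 1140, 944 and 2125. KO replicate 3 and WT replicates 1 and 3 also stood apart from the other 3 libraries by Gm42418, an annotated gene that RefSeq lists as a synonym of the ribosomal RNA gene Rn18s-rs5. The median low cell had 0.290%, 0.227% and 7.96% of its UMIs in Gm42418 in KO and 7.47%, 1.64% and 9.96% in WT. The same 3 libraries had the largest shares of called cells above the mitochondrial limit, with 5.43%, 7.35% and 32.4% in KO and 35.3%, 13.2% and 30.6% in WT. This split crosses the genotypes, with KO replicates 1 and 2 and WT replicate 2 on the lower side. A further 740 barcodes occurred in more than 1 library, among them those of 233 low cells, and a pair of libraries shared at most 3 barcodes that were low in both.

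Low cells formed a separate peak and not the tail of the higher cells. The gate held 1918 cells at 4 to 6% ribosomal UMIs, only 345 at 12 to 14%, and 5441 at 32 to 36%. Just inside the limit, at 8 to 10%, lay 799 cells with a median of 1518 UMIs, 3.497% mitochondrial UMIs and 0.394% Gm26917. Just outside it, at 10 to 12%, lay 369 cells with a median of 1502 UMIs, 3.18% mitochondrial UMIs and 0.177% Gm26917. The cells on both sides of the limit were thus alike in depth, and the limit cut through the slope between the peaks.

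**Figure D1:**
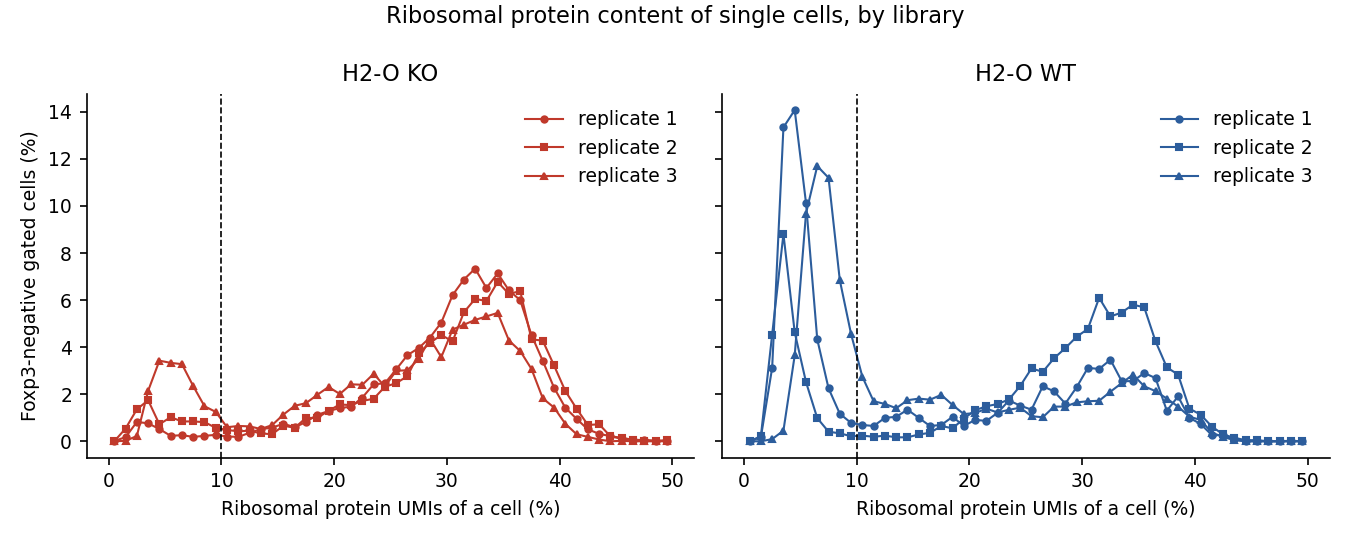
Share of the Foxp3-negative gated cells of each library (y axis, percent) by the ribosomal protein UMIs of the cell (x axis, percent, in steps of 1), with H2-O KO replicates on the left, H2-O WT replicates on the right and the 10% limit dashed. The low peak is tallest in H2-O WT replicates 1 and 3, and the low cells make up 3.47% to 17.5% of H2-O KO libraries and 22.7% to 49.4% of H2-O WT libraries.

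The share of gated cells that were low was 3.47%, 8.46% and 17.5% in KO and 49.4%, 22.7% and 48.2% in WT. Every WT library lay above every KO library, at 40.1% ± 15.1 against 9.81% ± 7.11 (SD, n = 3 mice each), with p = 0.1 in the exact two-sided permutation test, which is the smallest p that 3 against 3 mice can give. The groups also stayed apart with limits of 7% (2.78% to 12.4% against 21.7% to 45.2%) and 15% ribosomal UMIs. They overlapped when the mitochondrial limit was raised to 10% (p = 0.2, exact permutation test), with 7.30%, 13.3% and 32.9% in KO and 64.7%, 32.1% and 60.8% in WT. Among Foxp3-positive cells of the same gate the low shares were 2.68%, 6.25% and 13.4% in KO and 34.5%, 18.96% and 29.8% in WT, in the same order of libraries. WT lay above KO within both sides of the library split, at 22.7% against 3.47% and 8.46%, and at 49.4% and 48.2% against 17.5%. The share of called cells above the mitochondrial limit moved with these shares in part (p = 0.3 by genotype, exact permutation test), and its part in them was not tested.

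A low cell was a shallow cell. The median low cell held 1618 UMIs from 1024 genes, against 4832 UMIs from 1811 genes in the median higher cell. It held 85 ribosomal protein UMIs against 1489, which is the quantity the rule used. Mitochondrial UMIs made up 3.66% of the median low cell (56 UMIs) and 1.95% of the median higher cell (93 UMIs), so that the share was higher and the number lower. Malat1 took 4.22% of the median low cell and 0.734% of the median higher cell. Gm42418 had no common direction, with medians in low cells below those in higher cells in KO replicates 1 and 2 (0.290% against 0.792% and 0.227% against 0.746%) and above them in the other 4 libraries.

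Median depth did not separate the genotypes within the low cells, with 1598, 1750 and 1600 UMIs in KO and 1351, 1735 and 1694 UMIs in WT (p = 0.8, exact two-sided permutation test). The median ribosomal share, which the rule holds below 10%, was 3.86%, 4.67% and 5.86% in KO and 4.52%, 3.72% and 6.89% in WT. The median mitochondrial share, held to 5% or less, was 3.66%, 3.32% and 3.21% in KO and 3.64%, 3.75% and 3.79% in WT, and both are given without a test. Gm26917 did separate them, with a median share of 0.125%, 0.122% and 0.196% in KO and 0.506%, 0.213% and 0.442% in WT (p = 0.1, exact permutation test). In higher cells the same measure overlapped (p = 0.9, exact permutation test), at 0.0140% to 0.0235% in KO and 0.0155% to 0.0176% in WT.

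The low cells carried T cell receptor messages. After every cell was thinned to 1000 UMIs, at least 1 UMI of Cd3d, Cd3e, Cd3g, Trac, Trbc1 or Trbc2 was found in 83.9%, 84.6% and 82.6% of low cells in KO and in 63.7%, 64.1% and 68.4% in WT. The genotypes did not overlap (p = 0.1, exact permutation test, the smallest possible). In higher cells the shares were 95.02% ± 0.554 in KO and 93.8% ± 0.721 in WT (SD, n = 3 mice each), and did not overlap either (p = 0.1, exact permutation test). Of 150 cells with at least 5 UMIs of C1qa, C1qb, C1qc and Cd79a, which should lack these messages, 34.0% had a UMI at the same depth (95% interval 26.5% to 42.2%, exact binomial, counting error only), from a median of 3968 UMIs before thinning. Unthinned, the shares of low cells were 89.6%, 91.5% and 89.8% in KO and 73.2%, 78.8% and 84.1% in WT. Cells under 1000 UMIs were left out, 30, 28 and 192 of the low cells in KO and 241, 60 and 99 in WT.

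Markers of B cells, of macrophages, monocytes and dendritic cells and of CD8 T cells had smaller sums in low cells, and those of other cells varied. The 10 B cell markers summed to 147 CPM ± 38.3 in low cells and 379 CPM ± 21.9 in higher cells (SD, n = 6 libraries), nearly all of it Ighm. The 14 macrophage, monocyte and dendritic cell markers summed to 64.2 CPM ± 30.4 against 172 CPM ± 27.4, led by Cst3, and 2 of them were at 0 in low cells. The 6 stromal and endothelial markers summed to 282 CPM against 141 CPM. In low cells 5 of them were at 0, so the sum was that of Pecam1, which T cells also carry and which was higher there (log2 ratio 1.00). The CD8 T cell list (Cd8a and Cd8b1) summed to 14.8 CPM against 28.0 CPM and the NK, NKT and gamma-delta T cell list to 58.3 against 72.4 CPM. The red blood cell and platelet list gave no order, at 1.40 to 15.8 CPM in low cells and 2.29 to 10.2 CPM in higher cells of 5 libraries, with 111 CPM in the higher cells of KO replicate 3. The neutrophil list stood at 75.8 CPM against 0.0267 CPM, and these messages came from 4 low cells with 635 UMIs of S100a8 and S100a9, 2 of them in KO replicate 3 and 2 in WT replicate 2.

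Levels in low and higher cells were compared within each library as CPM over the UMIs outside ribosomal protein and mitochondrial genes. A gene was called where it was higher, or lower, in 6 of 6 libraries and at least 2-fold on average, with a mean of at least 50 CPM in either class. Of 5097 genes, 1175 were higher in low cells (23.1%) and 894 were lower (17.5%). The rule used this contrast, so nothing is read from these shares. The median gene had a log2 ratio of 0.37, and 0.81 when all UMIs made up the total, where 2062 genes were called higher and 481 lower. In mean UMIs per cell the median was -0.70, with 25 genes called higher and 2056 lower.

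Gm26917 (chromosome 17, 39843013 to 39846341), a noncoding gene that lies beside Gm42418 (39846958 to 39848788), was given with the rule as a gene that marks the low cells, as were Gm16565, Lncpint and Cblb, and these are called the 4 leading genes. It stood at 1804, 1788 and 4374 CPM in low cells of KO and at 6858, 2815 and 6724 CPM in WT, against 289, 342 and 891 CPM and 405, 320 and 766 CPM in higher cells. Every library was higher in its low cells, by 2.94 ± 0.66 on the log2 scale (SD, n = 6 libraries). It was also higher per cell, at 6.104 UMIs against 1.597.

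Gm16565 (chromosome 1, 165781075 to 165789367), another noncoding gene, stood at 224, 195 and 144 CPM in low cells of KO and 334, 376 and 241 CPM in WT, and at 21.8 to 45.2 CPM in the higher cells of all libraries. Its log2 ratio was 2.93 ± 0.31, and its mean number per cell was 0.389 UMIs against 0.105. Lncpint (chromosome 6, 31082565 to 31220488), a long noncoding RNA under p53 control, stood at 592 CPM in low cells and 105 CPM in higher cells, a log2 ratio of 2.46 ± 0.18. Cblb (chromosome 16, 52031225 to 52208048), a ubiquitin ligase that restrains T cell receptor signalling, stood at 1229 CPM against 276 CPM, a log2 ratio of 2.13 ± 0.24. Per cell, Lncpint stood at 0.916 against 0.348 UMIs and Cblb at 1.904 against 0.910 UMIs. All 4 leading genes were thus higher in mean number per cell as well as in share.

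Some genes turned near the limit and others did not. Mean Cblb was 1203 CPM in cells under 4% ribosomal UMIs, 943 CPM at 8 to 10%, 656 CPM at 10 to 12% (5 libraries), 328 CPM at 12 to 16% and 252 CPM from 32% upward. Atp5e, a subunit of the mitochondrial ATP synthase, went the other way, with 74.0 CPM under 4%, 239 CPM at 8 to 10%, 883 CPM at 12 to 16% and 1247 CPM from 32% upward. Igfbp4, a naive T cell gene, did not turn there, and stayed between 180 and 305 CPM below 24% ribosomal UMIs before it reached 1003 CPM at 24 to 32%. Rplp0 climbed steadily, from 731 CPM under 4% through 2005 CPM at 8 to 10% and 3047 CPM at 12 to 16% to 12132 CPM from 32% upward, and Cd4 lay between 350.5 and 524 CPM throughout. The 10 to 12% bin held values between those of its neighbours for Cblb and Atp5e, from the 351 of its 369 cells that lay in the 5 libraries used.

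**Figure D2:**
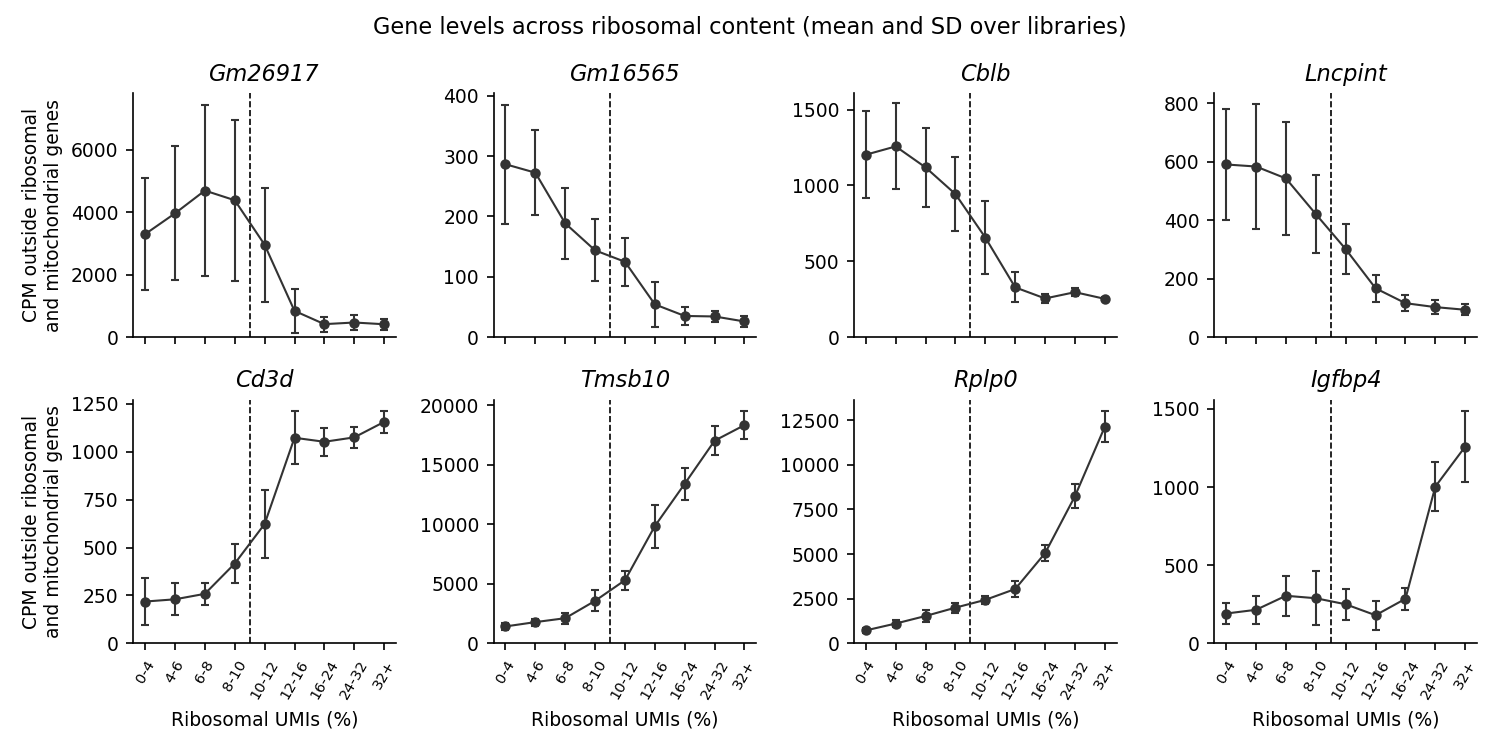
Level of 8 genes (y axes, CPM outside ribosomal protein and mitochondrial genes, linear from 0) by the ribosomal protein UMIs of the cell (x axes, percent), as the mean and SD over libraries, with the 10% limit dashed. The 4 leading genes are high on the left of the limit (Cblb 1203 CPM under 4%) and low on the right (252 CPM from 32% upward), and Cd3d, Tmsb10 and Rplp0 run the opposite way.

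Nuclear and noncoding RNAs were higher in low cells. Of 9 such genes tested, 7 were called higher and 0 lower, with a median log2 ratio of 2.10. Malat1 stood at 45519 CPM against 12004 CPM, Neat1 at 232 against 64.9 CPM, Kcnq1ot1, the antisense RNA of an imprinted domain, at 291 against 56.5 CPM and Xist, the RNA that coats the inactive X chromosome, at 1431 against 321 CPM. These 4 were also higher in mean UMIs per cell.

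Messages of the translation machinery were lower. The 6 ribosomal protein genes whose names the rule did not count were all called lower, at a median log2 ratio of -3.08. Rplp0, a stalk protein of the large subunit, stood between 786 CPM (WT replicate 2) and 1710 CPM (KO replicate 3) in low cells, and at a mean of 9257 CPM in higher cells. Of 20 translation factors and other messages of the 5' TOP class, 16 were lower and 0 higher, at a median of -1.65. Eef1a1, the elongation factor that brings aminoacyl-tRNA to the ribosome, had a log2 ratio of -1.89 ± 0.48, and Tpt1, a growth-related protein translated with the ribosomal proteins, -2.82 ± 0.38.

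A 5' TOP message begins with a run of pyrimidines that ties its translation to growth signals, so the starts of 4 of these genes are shown with those of Cblb, Slc25a36 and Lncpint, 3 genes higher in low cells. Each window runs from 10 bases before the RefSeq start to 15 bases from it (GRCm38.p6), and capitals mark a run of 8 or more C or T.
Fau, chr19:6057937-6057961, plus strand: gcccccaCTTCTTCCTCTTTCTTga
Eef1a1, chr9:78481710-78481734, minus strand: ctccgCCCTCTTCCCgagggtgggg
Rplp0, chr5:115559457-115559481, plus strand: cgggtttcgaggaccgcctggttct
Tpt1, chr14:75845246-75845270, plus strand: cgctgacgacagttccgggggagcc
Cblb, chr16:52031539-52031563, plus strand: tccgccttagctccgccccacgcct
Slc25a36, chr9:97111027-97111051, minus strand: ccactcccttgcgTCCCCCTTCTTg
Lncpint, chr6:31218460-31218484, minus strand: ccggtgtcacatgatggacatgata
The run was found on the coding strand in 11.05% of the 27025 genes with a window, 31.0% of the 71 matched genes of the ribosomal name pattern and 28.6% of the 14 matched TOP genes. It was also found in 5 of the 20 matched chromatin and transcription regulators, a list with 14 members higher and 0 lower in low cells, in 15.8% of the 19 actin and housekeeping genes and in 10.0% of the 30 oxidative phosphorylation genes. Among genes called in the comparison of classes it was found in 12.7% of those higher and 9.33% of those lower in low cells, against 11.97% of tested genes. A run is a match of letters only, and its absence in Rplp0 and Tpt1 says only that it is not in this window of the annotated start.

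Short cytoplasmic messages went with them. Of 37 nuclear genes of oxidative phosphorylation, 36 were lower and 0 higher in low cells, at a median log2 ratio of -2.55. Atp5e stood at 112 CPM against 1133 CPM and Ndufa3, a subunit of complex I, at 51.2 CPM against 489 CPM. The 13 mitochondrially encoded genes of the same complexes had a median of 0.31 and none was called. Of 18 actin and housekeeping genes, 17 were lower, among them Actb (-1.48 ± 0.48) and the actin-binding thymosins Tmsb10 (-3.17 ± 0.42) and Tmsb4x (-3.00 ± 0.28).

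Genes of T cell identity split. Of 12 genes of the T cell receptor complex and its coreceptor, 7 were lower and 0 higher, at a median of -1.06, with Cd3d at -2.20 ± 0.46, Cd3g at -1.72 ± 0.57 and Cd3e at -1.02 ± 0.45. Cd4 itself had a ratio of 0.18 ± 0.59 and no common direction, with 662, 582 and 462 CPM in low cells of KO and 321, 423 and 321 CPM in WT. Of 18 naive and quiescence genes, 3 were higher, the transcription factors Bach2 (1.78 ± 0.14), Satb1 (1.31 ± 0.18) and Foxp1 (1.03 ± 0.09, but -0.05 in UMIs per cell), and 3 were lower, Dapl1, Ly6c1 and Igfbp4. Of 15 activated and memory genes, 9 were lower and 0 higher, at a median of -1.65. Of 8 Treg genes other than Foxp3, Il2ra (1.79 ± 0.35) and Ikzf2 (1.68 ± 0.48) were higher, and Izumo1r and Capg were lower. Over all genes tested 23.1% were higher and 17.5% lower. The naive and Treg counts lie near these shares and are not read as results about those lists.

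Genes that restrain signalling, chromatin and splicing regulators had positive medians in CPM and negative ones per cell, as had all genes tested (0.37 and -0.70). Of 16 ubiquitin ligase and T cell receptor brake genes, 6 were higher and 0 lower, with a median of 0.79 in CPM and -0.28 per cell. They included Pag1 (1.81 ± 0.16), an adaptor that holds the inhibitory kinase Csk at the membrane, and Tnfaip3 (1.00 ± 0.22, but -0.08 in UMIs per cell), an inhibitor of NF-kB signalling. Of 30 chromatin and transcription regulators, 14 were higher and 0 lower, with a median of 0.97 in CPM and -0.10 per cell, and Chd2, a chromatin remodeller, had the ratio 2.02 ± 0.18. Of 20 splicing genes, 4 were higher, a share below the 23.1% of all genes tested, and 0 lower, with a median of 0.79 in CPM and -0.29 per cell.

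Remaining lists were mixed, beside 23.1% of all genes tested higher and 17.5% lower, and their counts are not read as results. Of 9 apoptosis genes, Bcl2l11, which encodes the death-promoting protein Bim, was higher (1.92 ± 0.29), and Bax was lower (-1.53 ± 0.08). Of 22 immediate early genes, 3 were higher and 4 lower, at a median of -0.44. Of 10 interferon response genes, 3 were lower, led by Ifi27l2a (-3.02 ± 0.20), and 0 were higher. The largest ratios of all called genes were those of Gm43065 (3.55), Sept2 (ENSMUSG00000026276, 2.95), Gm26917, Gm16565 and Mpp7 (2.88), a scaffold protein of cell polarity. The smallest were those of Gm11808 (-3.55), Gm2000 (-3.52) and Gm28901 (-3.47), which may share reads with near-identical genes, and of Mrpl14 (-3.39), a protein of the mitochondrial ribosome, and Atp5e (-3.37).

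**Figure D3:**
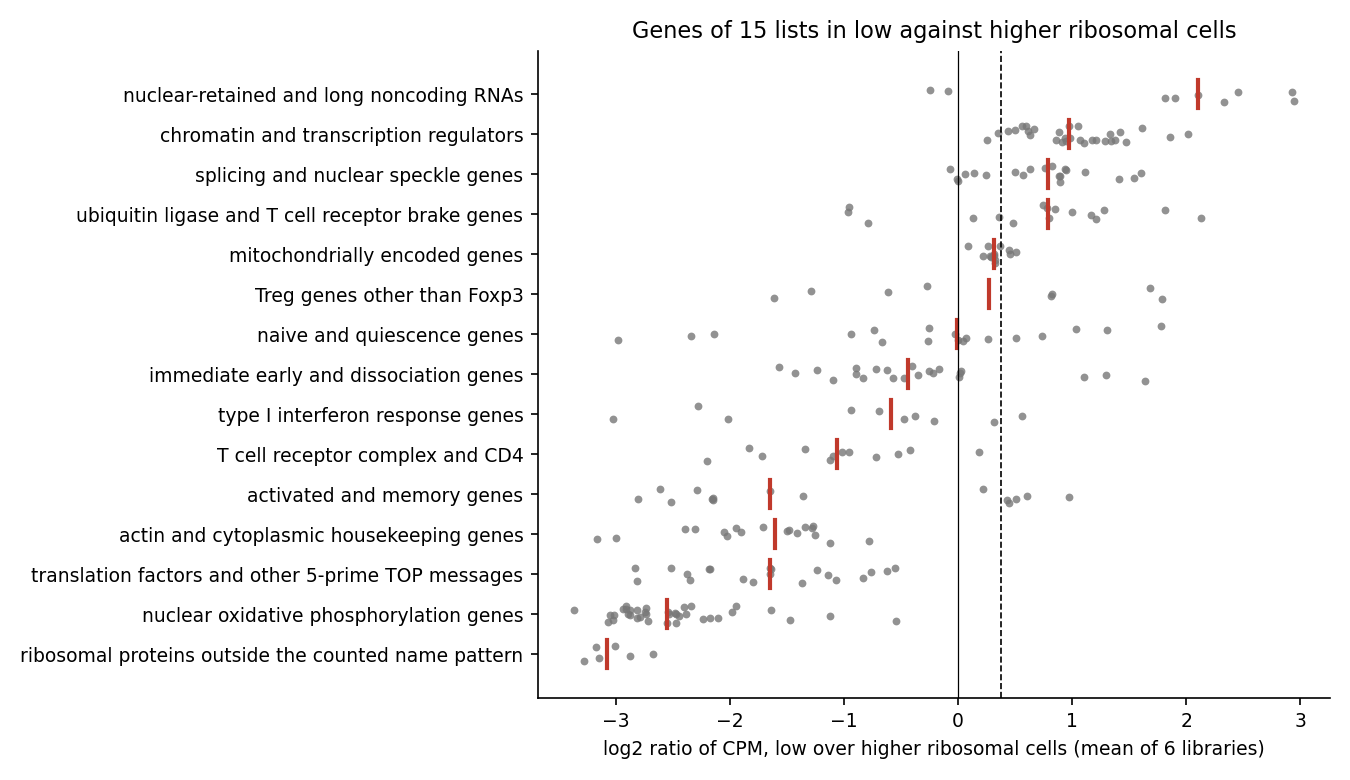
Mean log2 ratio of CPM in low over higher cells (x axis) for each tested gene of 15 lists (grey points), with the median of each list in red, 0 as a solid line and the median of all 5097 tested genes, 0.37, dashed. Nuclear RNAs sit at the top (median 2.10), and oxidative phosphorylation and ribosomal protein genes at the bottom (medians -2.55 and -3.08).

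Across the whole table the ratio followed the length of the message. Of 217 protein-coding genes with a spliced length under 750 bases, 89.9% were lower and 0% higher in low cells, at a median log2 ratio of -2.29. The median was -0.92 at 1000 to 1500 bases, 0.29 at 2000 to 3000 bases and 0.88 at 4000 to 6000 bases. Of 574 genes of 6000 bases or more, 0.348% were lower and 60.3% higher, at a median of 1.11. The order of the bins was the same in every library. Without the genes of the ribosomal protein, TOP and oxidative phosphorylation lists, the medians were -2.15 under 750 bases and 1.11 from 6000 bases. The other lists stayed in, and the bin from 6000 bases kept its 574 genes. Genes higher in low cells had a median spliced length of 4482 bases, those lower 1076 bases, and all tested genes 2808 bases.

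**Figure D4:**
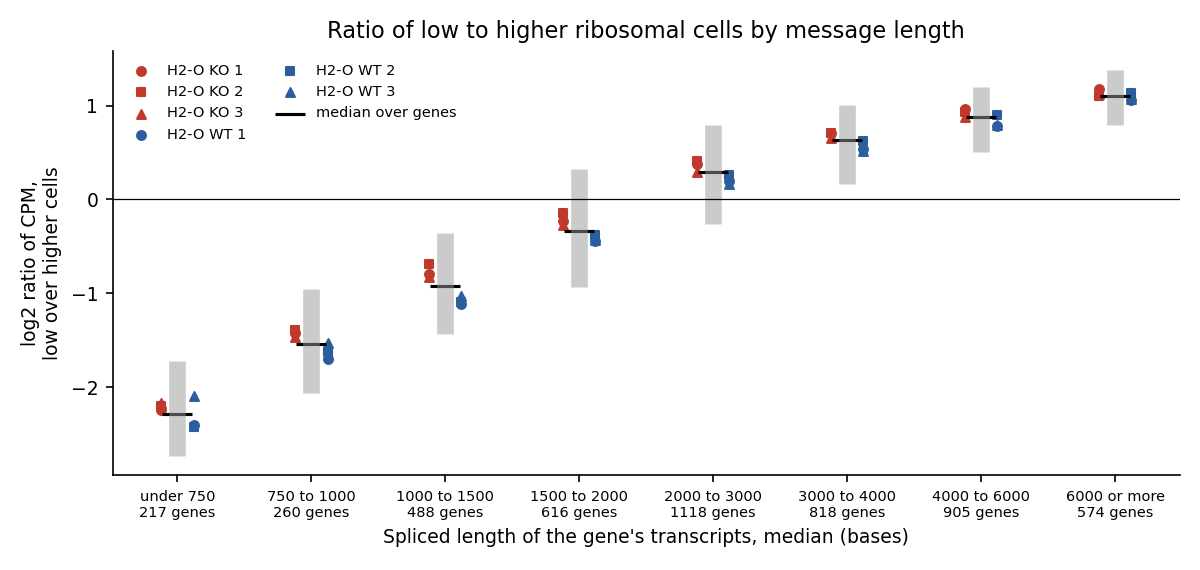
Median log2 ratio of CPM in low over higher cells (y axis) for protein-coding genes in bins of spliced length in bases (x axis, with the number of genes), for each library (red H2-O KO, blue H2-O WT) and over genes (black bar). The median climbs from -2.29 under 750 bases to 1.11 from 6000 bases.

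Clustering the low cells alone, without ribosomal, mitochondrial and T cell receptor variable genes, gave 5 clusters, and every library had cells in each. Cluster 1, with 1326 cells (23.4%), was led by Igfbp4, Rflnb and Ccr7 and is called naive-like. Cluster 4, with 439 cells (7.74%), was led by the interferon response genes Ifit1, Rsad2 and Ifit3. Cluster 2, the largest with 2017 cells (35.6%), was led by Gm26917 and Gm42418 and had the lowest median depth, 1270 UMIs.

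The remaining clusters took no name. Cluster 0, with 914 cells (16.1%), was led by Myb, Sox4 and Itm2a, the first 2 of them transcription factors of developing T cells. Cluster 3, with 975 cells (17.2%), was mixed, with the Treg genes Ikzf2 and Nrp1, the memory gene Ahnak, the cycling gene Mki67 and, from the 4 neutrophil-like cells, S100a8 and S100a9 among its leading genes. It held Ikzf2 at 813 CPM over all UMIs, against 24.1 to 76.2 CPM in the other 4. The low cells of KO and WT were spread differently over the clusters. The naive-like cluster held 53.5%, 58.0% and 43.6% of the low cells in KO and 8.33%, 18.5% and 16.7% in WT, without overlap. Cluster 2 held 6.64%, 5.69% and 30.1% in KO and 55.8%, 16.4% and 42.9% in WT. The clusters were built on genes that also differ between the genotypes, so these shares were not tested. A resolution of 0.3 in place of 0.5 left 3 clusters, and one of 0.8 made 9.

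The genotypes were then compared within the low cells, on UMIs summed per library, with edgeR over all genes. Such sums cannot tell more cells with a message from more message per cell. Of 9259 genes tested, 549 rose in KO (5.93%) and 553 fell (5.97%) at an adjusted p under 0.05, 11.9% together, and 27.1% had an unadjusted p under 0.05. The genotypes did not overlap in 1068 of these 1102 genes, nor in 31.4% of all genes tested. The number of calls depended on single mice, with 254 without WT replicate 1, 446 without KO replicate 3, 620 and 629 without KO replicates 1 and 2, 643 without WT replicate 2 and 1244 without WT replicate 3. With a mitochondrial limit of 10% in place of 5%, 37 of 109 named genes were no longer called. In higher cells 365 of 11873 genes rose (3.07%) and 843 fell (7.1%), 10.2% together, and 27.9% had an unadjusted p under 0.05. These calls numbered 106, 187 and 576 without KO replicates 1, 2 and 3, and 150, 388 and 1478 without WT replicates 1, 2 and 3.

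The difference between the genotype effects was tested directly, as the interaction of class and genotype with the mouse as a block, and passed for 241 of 11035 genes (2.18%), with a larger log2 change in low cells in 199 (1.8%) and a smaller one in 42 (0.381%). An unadjusted p under 0.05 was reached by 15.3%. With RLE size factors the split was 129 and 55, and with DESeq2 105 and 55. The calls numbered 49, 54 and 107 without KO replicates 1, 2 and 3, and 44, 159 and 256 without WT replicates 1, 2 and 3. Members of the lists with a larger change in low cells were 4 of 12 T cell receptor genes, 3 of 18 naive genes, 4 of 20 activated and memory genes, 2 of 12 Treg genes, 2 of 24 immediate early genes and 1 each of the TOP, brake and actin lists, with 0 smaller in any of these. A smaller or more negative change in low cells was called for 2 of 14 nuclear and noncoding RNAs, 2 of 8 class II genes, 1 of the 4 leading genes and 1 each of the splicing, apoptosis and nuclear oxidative phosphorylation lists. Mitochondrially encoded genes, whose share the rule limits, are left out of this tally.

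Because the clusters held different shares of the 2 genotypes, the comparison was repeated within the naive-like cluster, a choice made after the data were seen. With 129, 163 and 410 cells in KO and 95, 175 and 354 in WT, 28 genes rose and 20 fell among 5775 tested. Of 109 named genes called in low cells, 13 were called there, 65 kept their direction without passing, 2 turned and 29 could not be tested, with fewer cells and genes behind each value. The genes that passed included Cd3g (0.85, adjusted p = 0.017), Il7r (0.86, adjusted p = 0.0179) and Gm16565 (-0.84, adjusted p = 0.0179). Among genes whose call it ended were Xist (-0.63, adjusted p = 0.0512), Chd2 (-0.55, adjusted p = 0.0843), Actb (0.62, adjusted p = 0.111) and Dusp1 (0.33, adjusted p = 0.307). Values of further genes are given beside them, and the part of the cluster shares in the remaining changes was not tested.

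The leading genes of the low cells were lower in KO. Lncpint stood at 408, 490 and 326 CPM over all UMIs in KO and at 680, 777.1 and 571 CPM in WT, without overlap, and fell by 0.87 on the log2 scale (SE 0.14, adjusted p = 0.00111). Gm16565 stood at 206, 178 and 131 CPM against 307, 347 and 215 CPM and fell by 0.92 (SE 0.16, adjusted p = 0.00179). Both also fell in higher cells, Lncpint by 0.62 (adjusted p = 0.00243) and Gm16565 by 0.83 (adjusted p = 0.00274), and the effects of the 2 classes were not shown to differ (adjusted p of the difference 0.267 and 0.798).

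Gm26917 and Cblb rested on few mice and on the choice of cells. Gm26917 stood at 1660.3, 1640.5 and 3984 CPM in KO and at 6300.5, 2601 and 6022 CPM in WT, so KO replicate 3 lay above WT replicate 2. Its log2 change was -1.15 (SE 0.34, adjusted p = 0.037), and it did not pass without KO replicate 1 or 2 or WT replicate 1 or 3 (adjusted p up to 0.196). It was -0.63 with a mitochondrial limit of 10% (adjusted p = 0.479) and -0.68 within the naive-like cluster (adjusted p = 0.165), and it did not pass in DESeq2 (adjusted p = 0.278) or without cells holding Il2ra, Ikzf2, Tnfrsf4 or Ctla4 (adjusted p = 0.0647). With the library split as a term, a choice made after the data were seen, the change was -0.73 (adjusted p = 0.000626). In higher cells its change was 0.01 (adjusted p = 0.996). Cblb stood at 964, 1181 and 755 CPM against 1372, 1346 and 1129.7 CPM, with a log2 change of -0.55 (SE 0.15, adjusted p = 0.0208), and did not pass without KO replicate 1 or 3 or WT replicate 1 (adjusted p up to 0.124), and its change within the naive-like cluster was -0.25 (adjusted p = 0.481).

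Nuclear RNAs and nuclear regulators fell where they were called. Of 13 nuclear and noncoding RNAs 6 fell in KO and 0 rose. Of 30 chromatin regulators 10 fell and 0 rose, and of 20 splicing genes 8 fell and 0 rose, with medians of -0.31 and -0.32 beside 0.01 over all genes tested. Xist stood at 959, 997 and 916 CPM in KO and at 1867, 1515 and 1594 CPM in WT and fell by 0.93 (SE 0.14, adjusted p = 0.000864). Chd2 fell by 0.71 (adjusted p = 0.00326) and the splicing kinase gene Clk1 by 0.76 (adjusted p = 0.00178). In higher cells 18 of the chromatin and 7 of the splicing genes fell too.

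T cell receptor genes rose in KO. Of the 12 genes of the complex and Cd4, 8 rose and 0 fell in low cells, with a median of 0.51, against 1 and 1 in higher cells. Cd3g, a signalling chain of the receptor, stood at 490, 422 and 360 CPM in KO and at 167, 182 and 214 CPM in WT, and rose by 1.01 (SE 0.13, adjusted p = 0.000298). In higher cells it stood at 706 to 730 CPM against 629 to 671 CPM, a change of 0.13 (adjusted p = 0.109), and the difference between the classes was 0.85 (adjusted p = 0.00722). Thy1, a surface glycoprotein of T cells, rose by 0.88 (adjusted p = 0.000419), with a difference of 0.77 (adjusted p = 0.00952), but its change within the naive-like cluster was 0.21 (adjusted p = 0.546). The difference for Cd3g and Thy1 was no longer called without KO replicate 1 (adjusted p = 0.0582 and 0.0717) or WT replicate 1 (adjusted p = 0.0704 and 0.0698).

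Cd4 went opposite ways in the 2 classes. It stood at 609, 534 and 421 CPM in low cells of KO and at 295, 391 and 287 CPM in WT, and rose by 0.54 (SE 0.13, adjusted p = 0.0148). In higher cells it stood at 244, 239 and 218 CPM against 322, 298 and 281 CPM and fell by 0.37 (SE 0.06, adjusted p = 0.0132). The difference of 0.88 passed (adjusted p = 0.000816). The rise in low cells was no longer called without KO replicate 1 (adjusted p = 0.074) or WT replicate 1 (adjusted p = 0.106), and the change within the naive-like cluster was 0.22 (adjusted p = 0.491). In cells thinned to 1000 UMIs, Cd4 was found in 46.9%, 39.1% and 33.6% of low cells in KO and in 22.6%, 30.0% and 24.5% in WT, and in 7.33% of the cells with C1q or Cd79a messages. Unthinned, these shares overlapped, at 43.8% to 60.6% against 29.5% to 44.2%.

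Of 18 naive and quiescence genes 5 rose, 1 fell and 12 did not pass in low cells, and 1 rose and 1 fell in higher cells. Ccr7, the chemokine receptor for entry into lymph nodes, stood at 772, 680 and 554 CPM in KO and at 308, 410 and 289 CPM in WT, and rose by 0.86 (SE 0.13, adjusted p = 0.000989), and its change within the naive-like cluster, which it helps to define, was 0.63 (adjusted p = 0.0508). Il7r, the receptor of the survival cytokine IL-7, stood at 811, 820 and 623 CPM against 391, 428 and 320 CPM and rose by 0.85 (SE 0.13, adjusted p = 0.000864). In higher cells Ccr7 had a change of 0.10 (adjusted p = 0.574) and Il7r one of 0.01 (adjusted p = 0.934).

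The differences between the classes were 0.71 for Ccr7 (adjusted p = 0.0152) and 0.80 for Il7r (adjusted p = 0.0035). That of Ccr7 was no longer called without KO replicate 1 or 2 or WT replicate 1 (adjusted p = 0.109, 0.0695 and 0.0881). Satb1, a chromatin organizer of naive cells, was the 1 gene of the list that fell, by 0.55 (adjusted p = 0.0119), and was not called without WT replicate 1 (adjusted p = 0.0781) or KO replicate 2.

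Several genes of activated and memory cells rose in low cells. Of 20 such genes 8 rose and 0 fell, at a median of 0.65, and 0 changed in higher cells. Itgb1, the beta chain of the integrins that bind fibronectin and collagen (chromosome 8, 128685654 to 128733200), stood at 607, 469 and 396 CPM in KO and at 148, 133 and 169 CPM in WT, and rose by 1.53 (SE 0.15, adjusted p = 1.34e-05). In higher cells it stood at 130, 122 and 203 CPM against 206, 129 and 283 CPM, a change of -0.44 (adjusted p = 0.329). The difference was 1.92 (SE 0.20, adjusted p = 2.2e-05). Within the naive-like cluster the change of Itgb1 was 0.39 (adjusted p = 0.521) and that of Vim 0.78 (adjusted p = 0.0406). Vim, an intermediate filament protein, rose by 1.28 (adjusted p = 2.19e-05), with a difference of 0.96 (adjusted p = 0.00125), and Cxcr3, a chemokine receptor of Th1 cells, rose by 1.51 (adjusted p = 0.00173).

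The classical activation markers did not follow. Cd44 stood at 107, 101 and 65.7 CPM in KO and at 76.2, 58.0 and 59.2 CPM in WT (log2 change 0.28, adjusted p = 0.323). Cd69 stood at 347, 414 and 350 CPM against 368, 315 and 305 CPM (0.04, adjusted p = 0.878). Nr4a1, a gene induced by receptor signalling, had a change of 0.45 (adjusted p = 0.038), which did not pass when any 1 library but WT replicate 2 was left out (adjusted p up to 0.176), and its change within the naive-like cluster was -0.02 (adjusted p = 0.981). The Treg genes Il2ra and Ikzf2 had changes of -0.10 and -0.08 (adjusted p = 0.767 and 0.779), although 4 of the 12 genes of that list rose, Tnfrsf4 (0.65), Tnfrsf18 (0.53), Izumo1r (0.93) and Capg (1.05). Tnfrsf4 and Tnfrsf18 passed only with most libraries in the fit, with an adjusted p of up to 0.179 and 0.172 when 1 was left out, and Capg did not pass without KO replicate 3 (adjusted p = 0.0503) or WT replicate 1 (adjusted p = 0.0647). Without cells that held Il2ra, Ikzf2, Tnfrsf4 or Ctla4, Capg and Izumo1r were no longer called (adjusted p = 0.139 and 0.104).

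**Figure D5:**
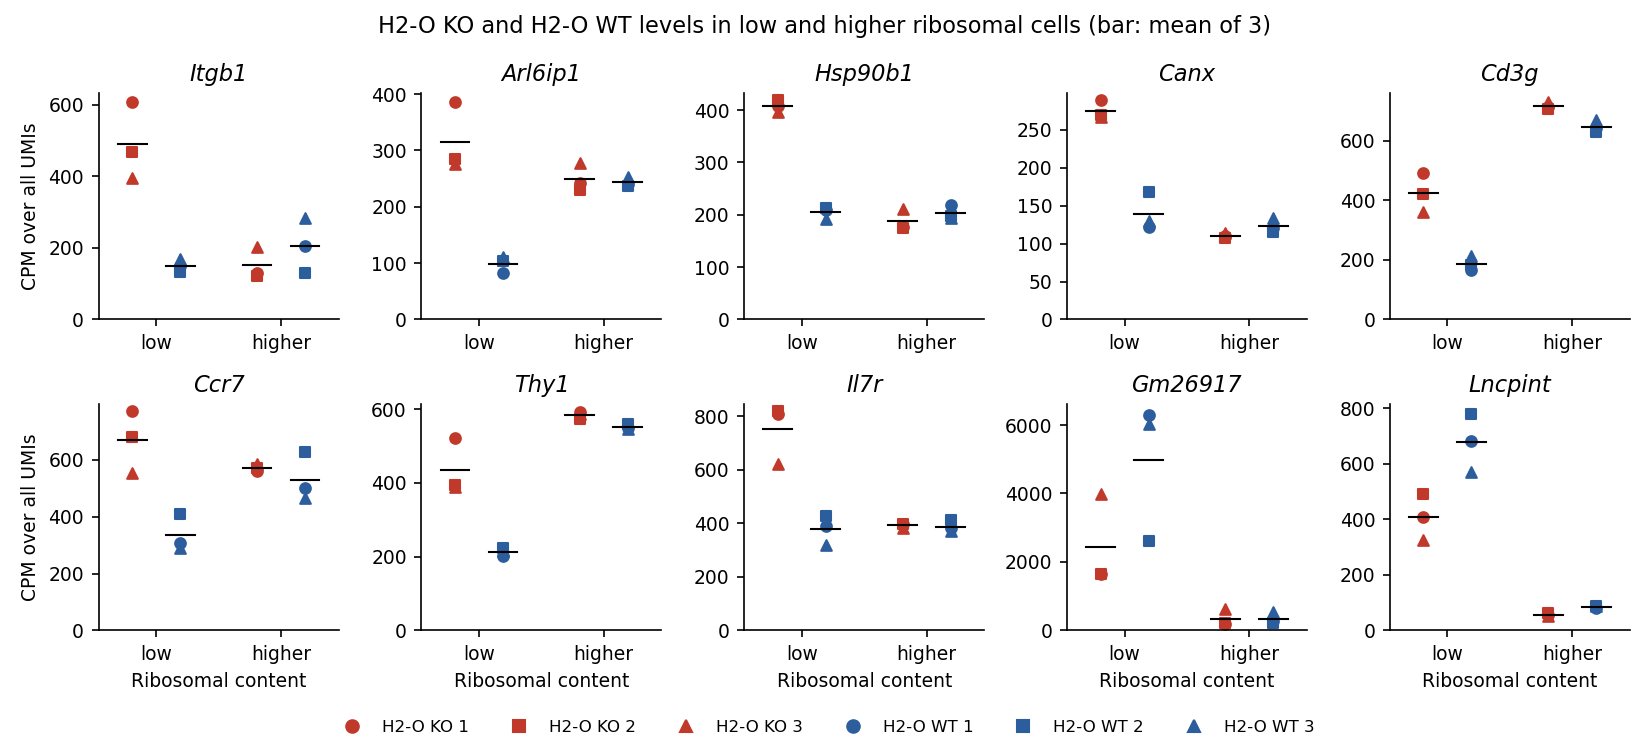
Level of 10 genes (y axes, CPM over all UMIs, linear from 0) in low and higher cells, 1 point per library (red H2-O KO, blue H2-O WT), with the mean of 3 as a bar. In low cells Itgb1 stands at 396 to 607 CPM in H2-O KO and 133 to 169 CPM in H2-O WT, while the genotypes overlap in higher cells.

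Arl6ip1, which shapes the membrane of the endoplasmic reticulum, shared the smallest adjusted p with Itgb1 and the chromosome 17 genes Glo1 and Dnah8. It was also among the 10 leading genes of the naive-like cluster, which held more of the low cells in KO than in WT, and its change within that cluster was 1.25 (adjusted p = 0.00109). It stood at 386, 285 and 276 CPM in KO and at 82.4, 104 and 110 CPM in WT and rose by 1.498 (SE 0.14, adjusted p = 1.34e-05), against 0.03 in higher cells (difference 1.43, adjusted p = 2.2e-05). Of 13 chaperones, folding enzymes and translocation genes of the reticulum, chosen after their values were seen, 9 rose and 0 fell in low cells, a count that supports nothing beyond these genes. Hspa5, the main chaperone of the reticulum, stood at 1512, 1346 and 1066 CPM against 627, 740 and 620 CPM and rose by 0.84 (adjusted p = 0.00105). In higher cells it stood at 477 to 528 CPM against 584 to 604 CPM and fell by 0.23 (adjusted p = 0.0329), with a difference of 1.03 (adjusted p = 0.000838). Within the naive-like cluster Hspa5 had a change of 0.58 (adjusted p = 0.0737), Hsp90b1 of 0.73 (adjusted p = 0.0301) and Canx of 0.33 (adjusted p = 0.304).

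Hsp90b1, a chaperone of integrins and other surface proteins, stood at 408, 420 and 396 CPM in KO and at 210, 213 and 191 CPM in WT, and rose by 0.87 (adjusted p = 0.000209). Canx, a lectin chaperone, rose by 0.86, Pdia4, a disulfide isomerase, by 1.36, Spcs2, a subunit of the signal peptidase, by 1.28 and Bcap31, a membrane protein of the reticulum, by 1.27, and all 4 also passed for the difference between the classes (adjusted p 0.000382 to 0.000666). Pdia3 (0.88), Pdia6 (0.72) and P4hb (1.05), further disulfide isomerases, also rose, Pdia6 with an adjusted p of up to 0.0758 when 1 library was left out. Calr (0.13, adjusted p = 0.648), Ssr1 (0.26, adjusted p = 0.29), Sec61a1 (0.14, adjusted p = 0.472) and Sec61b (-0.26, adjusted p = 0.542) were not called.

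Cytoplasmic genes rose in part. Of 19 actin and housekeeping genes 10 rose and 0 fell in low cells, and 4 rose and 1 fell in higher cells. Actb rose by 0.88 (adjusted p = 0.00584), a call that was lost without WT replicate 1 (adjusted p = 0.0693), and Ldha, a glycolytic enzyme, by 0.97 (adjusted p = 0.000281). Of 20 translation factors and other TOP messages 6 rose and 0 fell, but none of the 6 passed without KO replicate 3 or without WT replicate 1 or 2. Eef1a1 rose by 0.63 (adjusted p = 0.0376, and up to 0.189 with 1 library left out). None of 37 nuclear oxidative phosphorylation genes changed, at a median of 0.01. The 13 mitochondrially encoded genes, whose share the rule limits, had a median change of -0.38 and are given without a test. Among the 6 ribosomal protein genes outside the counted names, Rplp2 fell (-0.80, adjusted p = 0.0188), which did not pass without KO replicate 1 or 2 or WT replicate 1 or 3 (adjusted p up to 0.0959).

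Of 23 immediate early and dissociation genes 7 rose and 1 fell, among them Dusp1, a phosphatase that ends kinase signalling (0.64, adjusted p = 0.00446), and Fos (0.51, adjusted p = 0.0246). Dusp1 did not pass without WT replicate 1 (adjusted p = 0.0528), nor Fos without KO replicate 1 or 3 or WT replicate 1 or 2 (adjusted p up to 0.155). Of 19 brake genes Csk, the kinase that silences Lck, rose (0.61, adjusted p = 0.00513; 0.0503 without WT replicate 1) and Cblb fell. Of 13 apoptosis genes Bcl2l11 fell (-0.58, adjusted p = 0.0199), which did not pass without KO replicate 3 or WT replicate 1 or 2 (adjusted p up to 0.149). Over all genes tested in low cells 11.9% were called. The brake and apoptosis counts do not exceed this share and are not read as results about those lists. None of 15 interferon response genes changed, and of 7 cycling genes Top2a (0.99, adjusted p = 0.00775) and Hist1h1b (0.97, adjusted p = 0.0492) rose, the latter not with any 1 library left out (adjusted p up to 0.249). Of 4 class II genes tested, H2-Ob, the partner chain of H2-Oa, rose (0.90, adjusted p = 0.045; up to 0.162 when 1 library was left out). It stood at 25.5 to 55.8 CPM in KO and 11.8 to 22.1 CPM in WT. H2-Ob lies on chromosome 17 (34238903 to 34254414), as H2-Oa does, and also rose in higher cells (0.41, adjusted p = 0.0246).

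Of the markers of other cells, Ighm and Cst3 were called, at low levels. The B cell markers summed to 185, 161 and 188 CPM in KO and 122.7, 89.3 and 135 CPM in WT, most of it Ighm, which rose by 0.56 (adjusted p = 0.0286). In cells thinned to 1000 UMIs, the share of low cells with a B cell marker overlapped, at 7.58%, 11.9% and 13.8% in KO and 9.45%, 7.81% and 11.01% in WT (p = 0.5, exact permutation test). These shares also overlapped at 500 UMIs (p = 0.3, exact permutation test). They did not overlap at 1500 UMIs, at 17.6% to 20.4% in KO and 11.6% to 13.9% in WT (p = 0.1, exact permutation test). Nor did they overlap unthinned, at 21.5% to 21.99% in KO and 12.6% to 16.6% in WT (p = 0.1, exact permutation test). The macrophage, monocyte and dendritic cell markers summed to 50.1, 78.6 and 107 CPM against 23.6, 81.6 and 43.8 CPM, and their 1 tested gene, Cst3, rose by 1.00 (adjusted p = 0.0202). Ighm did not pass without KO replicate 1 or 3 or WT replicate 1 or 2 (adjusted p up to 0.265), nor Cst3 without KO replicate 2 or WT replicate 1 (adjusted p up to 0.0993). The part of such RNA in the genotype differences was not tested, nor was that of the unequal number of low cells per library.

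The 2 largest rises and the 2 largest falls of genes whose groups did not overlap lay on chromosome 17, which carries H2-Oa. H2-T3, a nonclassical class I gene (36185572 to 36190287), stood at 9.71, 15.2 and 12.1 CPM in low cells of KO and at 0, 0 and 0.807 CPM in WT. Tagap1, a GTPase-activating protein gene (6955011 to 6961156), stood at 29.1, 39.9 and 29.3 CPM against 1.24, 5.98 and 1.88 CPM and rose by 3.38 (adjusted p = 9.87e-05). Unc5cl (48454901 to 48539714), a regulator of NF-kB signalling, stood at 0, 1.899 and 3.83 CPM against 42.1, 34.7 and 37.7 CPM and fell by 3.85 (adjusted p = 2.23e-05). Hspa1b, an inducible heat shock protein gene (34956436 to 34959238), stood at 2.43, 3.797 and 5.10 CPM against 15.5, 40.7 and 95.2 CPM and fell by 3.75 (adjusted p = 0.00329).

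These 4 genes changed in the same direction in higher cells, by 2.599 for Tagap1, -3.24 for Unc5cl and -4.80 for Hspa1b, and H2-T3 was at 0 in all WT libraries there. H2-T3 and Hspa1b have near-identical neighbours and Tagap1 overlaps Gm49719, so reads may be split among them. Of 490 genes tested on chromosome 17, 80 were called in low cells (16.3%), beside 1022 of 8769 on other chromosomes (11.7%). Of the 235 tested within 10 megabases of H2-Oa, 40 were called (17.02%). An effect of H2-O and one of the chromosome segment that came with the knockout cannot be told apart here. Away from chromosome 17, the chemokine receptors Ccr4 (1.99, adjusted p = 0.00352) and Ccr8 (1.82, adjusted p = 0.00762), both known from Treg and Th2 cells, were among the 10 largest rises, and Ccr4 did not pass without KO replicate 3 (adjusted p = 0.0594). They stood at 12.1 to 24.3 CPM in KO and 2.39 to 8.67 CPM in WT.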

How the data were processed

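The authors deposited UMI counts per gene and cell, made from 10x Genomics 5' libraries with Cell Ranger 6.1.2 and mm10 according to their processing notes. These whole counts, not normalized, were the only values used. UMIs of low and of higher cells were summed per library, 1 library being 1 mouse. Genotypes were compared with edgeR 4.0.16 in R 4.3.3 (quasi-likelihood test, filterByExpr, TMM, Benjamini-Hochberg adjustment over all genes tested, adjusted p under 0.05). Nothing in the sources used here names separate litters or sorting days, so p-values measure the spread between these mice.

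Low and higher cells were set side by side as CPM with a pseudocount of 1, over UMIs outside 97 ribosomal protein and 13 mitochondrial genes. Single values per library were compared with exact two-sided permutation tests (scipy 1.17.1). Cells were thinned once, with a fixed seed, to 1000 UMIs, and as alternatives to 500 and 1500 UMIs. Clusters were made with scanpy 1.11.5 (2000 variable genes, 15 principal components, Leiden resolution 0.5) without integration. No doublet caller was run, and the limit of 12000 UMIs alone acts on doublets. Gene positions and lengths were those of GENCODE M21 (GRCm38), which held 32235 of the 32285 gene identifiers, and start windows came from RefSeq GRCm38.p6. Intervals cover counting error only.

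The cells, the 26 gene lists and the tests were chosen with earlier results of these data known. Named were the 4 leading genes, the most abundant and the called genes of each list, the 10 largest changes in each direction (5 for the difference between classes) and H2-Oa. Genes outside this rule are said to be so where they occur. On simulated counts with genes changed 2-fold, edgeR recovered 73.9% of them in low cells, 80.1% in higher cells and 54.1% for the difference between classes. Alternatives were RLE size factors, DESeq2 1.42.0, other filters and limits, a replicate block and leaving out each library. The values of 1 gene counted in these lists are not reported here.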

Additional observations from a re-analysis of the deposited data

Results flagged for a closer look

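The genotype effect differed between low and higher cells in 241 of 11035 genes (edgeR, class by genotype term with the mouse as a block). The 5 largest positive differences were those of Ccr4 (2.02), Trav7-3 (1.93), Itgb1 (1.92), Ccr8 (1.85) and Plscr1 (1.78), on the log2 scale as the KO against WT change in low cells minus that in higher cells.

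Itgb1 was described above and passed with each library left out. Ccr4 did not pass without KO replicate 1, 2 or 3 or WT replicate 3 (adjusted p up to 0.115), and Ccr8 did not pass with any 1 library left out (adjusted p up to 0.182). Trav7-3, a T cell receptor variable segment, stood at 9.71, 37.97 and 10.8 CPM in low cells of KO and 4.34, 5.38 and 4.84 CPM in WT, and without KO replicate 2, its highest library, the difference was 1.39 (adjusted p = 0.166). Plscr1, an interferon-induced phospholipid scramblase, stood at 7.28 to 12.8 CPM against 1.79 to 5.38 CPM, and did not pass without KO replicate 1, 2 or 3 or WT replicate 1 or 3 (adjusted p up to 0.262).

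The 5 largest negative differences were those of H2-Eb1 (-3.18), A230059L01Rik (-3.07), H2-Aa (-2.95), Gm49719 (-1.86) and D330041H03Rik (-1.78). H2-Aa and H2-Eb1 encode chains of MHC class II, which T cells of the mouse do not normally make. H2-Aa stood at 14.2, 5.99 and 35.7 CPM in higher cells of KO and at 4.13, 2.29 and 13.1 CPM in WT, and without KO replicate 3 its difference was -0.90 (adjusted p = 0.691). H2-Eb1 gave -1.16 without that library (adjusted p = 0.696). The B cell markers summed to 403, 380 and 399 CPM in higher cells of KO and 347, 384 and 360 CPM in WT, and their part in the class II differences was not tested.

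A230059L01Rik stood at 4.89, 11.7 and 3.02 CPM in higher cells of KO and 0.18, 0.327 and 0.873 CPM in WT, and did not pass without WT replicate 3 (adjusted p = 0.084). Gm49719, which overlaps Tagap1, did not pass without KO replicate 1, 2 or 3 or WT replicate 2 or 3 (adjusted p up to 0.0992). D330041H03Rik stood at 14.6, 11.4 and 8.93 CPM in low cells of KO and 28.5, 31.1 and 22.1 CPM in WT, and did not pass without KO replicate 3 (adjusted p = 0.105).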

How the results depend on the processing

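The low cells of the smallest library held 411978 UMIs, and 73.9% of simulated 2-fold changes were recovered in low cells and 80.1% in higher cells, so changes of that size can go uncalled in both. The count of 1102 genotype calls in low cells was 542 with DESeq2, 1785 with the median ribosomal share as a covariate, 661 without cells holding Il2ra, Ikzf2, Tnfrsf4 or Ctla4, 718 in cells of at least 2000 UMIs and 48 within the naive-like cluster. It ran from 254 to 1244 with 1 library left out. In higher cells 1208 calls ran from 106 to 1478, and the 241 differences between classes from 44 to 256. The differences numbered 160 with DESeq2 and 451 with the library split as a term. The terms for the split, the limit of 2000 UMIs, the fit within the naive-like cluster and the removal of cells with S100a8 or S100a9 were chosen after seeing the data. Causes of these changes were not tested.

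With a replicate block the calls were 1509 in low cells and 1994 in higher cells. Correlations of same-numbered mice in low cells were -0.0065, 0.0712 and 0.2114, and KO replicate 1 correlated best with WT replicate 2 (0.0818). In higher cells those of same-numbered mice were -0.0196, 0.2045 and 0.3765. KO replicate 1 again correlated best with WT replicate 2 there (0.2837). KO replicates 2 and 3 correlated best with the same-numbered WT mice in both classes. As replicate 1 did not, the numbers were not taken to pair the mice.

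Genes higher in low than in higher cells numbered 2062 over all UMIs, 25 in UMIs per cell and 1936 without a filter on low values, and genes lower 481, 2056 and 1467. Sub-clusters numbered 3 and 9 at other resolutions. The difference in the share of low cells, -30.25 percentage points (KO minus WT), ran from -23.7 to -34.7 over the limits tried, and from -25.6 to -39.0 with 1 library left out. Of the 109 named genes called in low cells, 69 were no longer called without WT replicate 1, 50 without KO replicate 3, 40 without KO replicate 2, 38 without KO replicate 1, 35 without WT replicate 2 and 14 without WT replicate 3. With the mitochondrial limit at 10% 37 did not pass. Without cells holding Il2ra, Ikzf2, Tnfrsf4 or Ctla4 30 did not pass and 13 could not be tested, at 2000 UMIs 19 and 15, with DESeq2 17 and 22, and at 3 to 7% ribosomal UMIs 14 and 5. Within the naive-like cluster 13 passed, 65 did not and 29 could not be tested, and the changes of the other 2, Nr4a1 and Icos, turned to -0.01557 and -0.0850. In UMIs per cell 143 of the 1175 genes called higher in low cells had a ratio below 0, among them Foxp1 (-0.0468) and Tnfaip3 (-0.0788).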

Other observations

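Coding sequences were scanned for hydrophobic stretches, which membrane and secreted proteins carry, a choice made after values of the genes were seen, and the shares below were not tested. A stretch (mean hydropathy of at least 2.6 over 8 residues among the first 35, or of at least 1.9 over 19 residues further on) was found in 38.7% of the 535 scanned genes that rose, 17.8% of the 516 that fell and 21.9% of those tested. Among genes with a larger change in low than in higher cells it was found in 110 of 197 (55.8%), beside 23.0% of those tested. In higher cells the shares were 22.7% of genes that rose, 19.7% of those that fell and 23.6% of those tested.

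The genotype calls also differed in message length. The median spliced length was 1937 bases in genes that rose in low cells, 4080.5 bases in those that fell and 2677 bases in those tested. In higher cells it was 1231.5 bases in genes that rose and 4556.5 bases in those that fell.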
